A study of Xenopus tropicalis with 52 samples.

Results

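The genes described here encode the extracellular matrix of the early *Xenopus tropicalis* embryo, the integrin receptors that bind it, and the enzymes that modify or cleave it. A gene was included when its name in either count table began with the symbol of a collagen (*col*), laminin chain (*lama*, *lamb*, *lamc*), fibrillin (*fbn*), integrin subunit (*itga*, *itgb*), lysyl oxidase (*lox*), lysyl hydroxylase (*plod1* to *plod3*), prolyl 4-hydroxylase alpha subunit (*p4ha*), matrix metalloproteinase (*mmp*), ADAMTS protease (*adamts*), nidogen (*nid1*, *nid2*), heparan sulphate sulphotransferase (*hs3st*, *hs6st*) or N-deacetylase/N-sulphotransferase (*ndst*), or was *fn1*, *sparc* or *hspg2*. Among 22571 gene rows this gave 148 genes, 147 in the table of Series 1 and 2 and 131 in that of Series 3. They comprised 34 collagens, 6 collagen hydroxylases, 4 lysyl oxidases, 11 laminin chains, 4 other matrix proteins (*sparc*, *nid1*, *nid2*, *hspg2*), 4 genes of fibronectin and the fibrillins, 14 alpha and 8 beta integrin subunits, 19 matrix metalloproteinases, 24 ADAMTS genes, 13 heparan sulphate enzymes and 7 genes with a similar name that encode other proteins. These 7 include *col4a3bp*, which encodes a ceramide transfer protein, *itgb1bp3*, which encodes a nicotinamide riboside kinase, and *itgb3bp*, which encodes a centromere protein.

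The extracellular matrix is a network of secreted proteins and glycosaminoglycan chains on which cells adhere and move. Laminins assemble from an alpha, a beta and a gamma chain into the basement membrane, where nidogens link them to collagens, and fibronectin is laid down as fibrils by cells that bind it through the integrin alpha5 beta1 receptor. In amphibian gastrulae a fibronectin matrix covers the inner face of the blastocoel roof and serves the migrating mesoderm as a substrate. Collagen chains are hydroxylated by the *p4ha* and *plod* enzymes before secretion, matrix proteins are cleaved by metalloproteinases, and heparan sulphate chains, sulphated by the *ndst*, *hs6st* and *hs3st* enzymes, hold growth factors at the cell surface.

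RNA was sequenced from pools of whole embryos collected at half-hour or hourly intervals after fertilisation, in 3 series that each used the eggs of a single female. Series 1 (7 libraries, 0 to 3.0 hours post fertilisation, hpf) and Series 2 (17 libraries, 2.5 to 9.5 hpf) were made from polyA+ RNA of larger pools of embryos. Series 3 used smaller pools and gave 19 polyA+ libraries from 0 to 9.0 hpf and 9 Ribo-Zero libraries from 0 to 8 hpf. PolyA+ selection recovers RNAs by their poly(A) tail, whereas Ribo-Zero removes ribosomal RNA and keeps other RNAs whatever their tail. The labels name no mutation or treatment in any group. Series 3 came from another colony, with smaller pools, other kits, another sequencer and longer reads. Colony, clutch, pool size, kit, sequencer and read length thus cannot be told apart. Its embryos also developed more slowly than those of Series 2.

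Windows of 3 libraries were compared. In Series 2 these were 6.5 to 7.0 hpf (6.5 hpf in duplicate) against 2.5 to 3.5 hpf, across activation of the zygotic genome, and 8.5 to 9.5 hpf against 6.5 to 7.0 hpf, at the onset of gastrulation. The 6.5 to 7.0 hpf libraries are thus shared between both comparisons. In Series 3 the activation windows were 8.0 to 9.0 hpf against 3.0 to 4.0 hpf for polyA+ RNA and 6 to 8 hpf against 0 to 2 hpf for Ribo-Zero RNA. The Ribo-Zero windows are earlier in development than those of Series 2, and the 6 hpf library lies at the edge of activation. Cleavage was examined as 2.0 to 3.0 hpf against 0 to 1.0 hpf in Series 1, 3.0 to 4.0 hpf against 0 to 1.0 hpf in Series 3 polyA+ RNA and 3 to 5 hpf against 0 to 2 hpf in Ribo-Zero RNA. PolyA+ was set against Ribo-Zero RNA at 0, 1 and 2 hpf and at 6, 7 and 8 hpf. Neighbouring time points stand in for replicates, so the spread within a window includes change over that window, and p-values measure only the spread between these samples of one clutch. Values below are normalised reads, that is, reads per 25000000 reads of the library, and they are not corrected for gene length. Changes are log2 fold changes from the quasi-likelihood test of edgeR, with p-values adjusted over all genes tested and a threshold of 0.05. That test gives no standard error (SE). The SE printed here is the absolute log2 change divided by the square root of the F statistic.

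Libraries of Series 1 held 19925593 to 24659133 counts, those of Series 2 held 22791007 to 33907947, and Series 3 held 4539916 to 17998536 for polyA+ RNA and 5326857 to 13562259 for Ribo-Zero RNA, so that a count of 0 allows up to 3.10 to 4.03, 2.22 to 3.31, 4.17 to 16.7 and 5.88 to 19.5 normalised reads in libraries of these 4 sets. These floors cover counting error only. The duplicates of Series 2 differed by a median of 1.16-fold at 4.5 hpf and 1.19-fold at 6.5 hpf over the matrix and integrin genes. The summed level of 7 zygotic marker genes was 18144 to 24218 at 6.5 to 7.0 hpf, against 6.51 to 17.4 at 2.5 to 3.5 hpf in Series 2. A list of 8 blood genes summed to 488 to 952 normalised reads in the libraries of Series 2. It summed to at most 50.03 in Series 1 and at most 133 in Series 3. Of this list *ptprc* reached 939 normalised reads, and the source of this signal was not tested. Of 5 sperm genes listed, 2 were found, and they summed to at most 32.5. Another list held 10 genes of ovarian somatic and connective tissue, 3 of them collagens counted here. It summed to at most 164 normalised reads in any library. In Series 2 this sum was 95.8 to 119 at 8.5 to 9.5 hpf, against 31.7 to 54.0 at 6.5 to 7.0 hpf, and its part in the results was not tested. Most of it came from *col1a2*, with 56.3, 56.0 and 73.0 at 8.5 to 9.5 hpf, against 45.7, 18.2 and 14.9, and from *dcn*, which encodes decorin, with 22.1, 22.6 and 33.8, against 0, 0.960 and 4.97 (log2 change 4.01, adjusted p = 0.000697), while *col3a1* and *cyp19a1* were at 0 in all 6 libraries.

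In 2 places libraries stood apart. In Series 1 some genes stepped between 2.0 and 2.5 hpf. Among them were *col14a1*, a fibril-associated collagen with 909, 1723, 1959, 2110 and 1919 normalised reads at 0, 0.5, 1.0, 1.5 and 2.0 hpf and 1.19 and 1.22 at 2.5 and 3.0 hpf, and *mmp24*, a membrane-type metalloproteinase with 245 to 432 normalised reads up to 2.0 hpf and 4.78 and 1.22 after it. Over all genes 11 were lower and 5 higher by at least 10-fold across that step. The cause was not tested, and the counts and the main genes of Series 1 cleavage are also given without the 2.5 and 3.0 hpf libraries. In Series 3 the first polyA+ library (0.0 hpf) carried higher levels of several of the genes than the next library, such as 3925 against 684 normalised reads of *itga5*, and results that rest on it are given without it.

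Expression of the genes was uneven. Of the 148 genes, 45 did not reach 10 counts in any library, 100 did so in some library of Series 1 or 2 and 74 in some library of Series 3. In Series 1 or 2, 19 of 34 collagens reached 10 counts, whereas all 4 genes of *sparc*, *nid1*, *nid2* and *hspg2* and 9 of 11 laminin chains reached it. Duplicates at the same hpf were averaged for the next counts. In Series 2, 40 genes held at least 25 normalised reads at every time, 70 stayed under 25 throughout and 21 crossed from below to above that level and remained there. *fbn2*, a fibrillin, had at most 9 counts in any library, and *loxl3*, a lysyl oxidase-like enzyme, at most 15. *col2a1*, the cartilage collagen, reached 61.2 normalised reads at 9.5 hpf of Series 2, its highest level in that series.

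**Figure D1:**
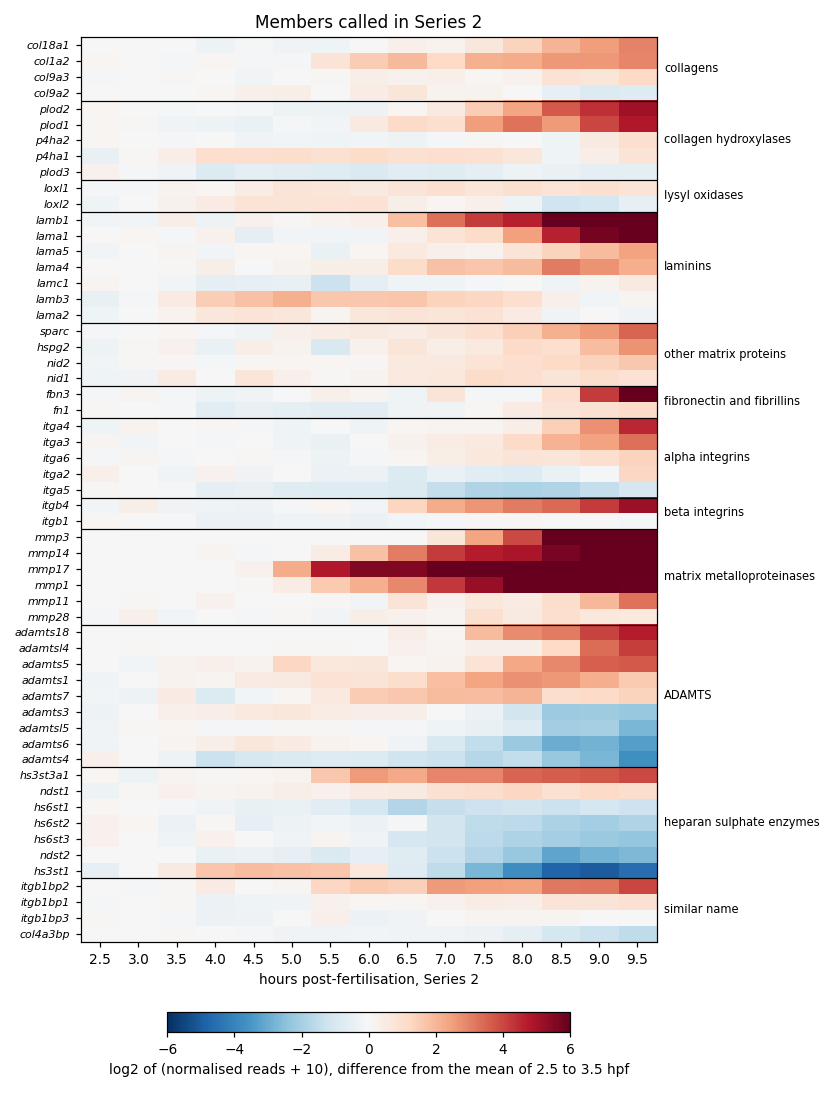
Heat map of the 57 matrix and integrin genes called in either Series 2 comparison, one row per gene grouped by role and one column per time in hpf, with the duplicates at 4.5 and 6.5 hpf averaged. Colour is log2(normalised reads + 10) minus the gene's mean over 2.5 to 3.5 hpf, limited to 6 in either direction, so that red rows are above and blue rows below their cleavage level; the last 3 columns hold most of the strong red.

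More of the genes changed at the onset of gastrulation than at activation, and the same was true of all genes tested. Between 8.5 to 9.5 hpf and 6.5 to 7.0 hpf in Series 2, 40 of the 81 genes that passed the filter on low counts were higher and 13 lower, where 33.1% of all 14097 genes tested were higher and 35.6% lower. The median log2 change was 0.56 over these 81 genes and -0.04 over all genes tested. The genes include some that passed the filter only through the window in which they were high, so these counts and this median are descriptions. Among them were *mmp3*, *adamts18*, *adamtsl4* and *itga4*, which reached 10 counts in the Series 2 windows only at 8.5 to 9.5 hpf. They could not be called lower. When counts were scaled to library totals instead, 34 were higher and 20 lower. The samples are whole embryos, in which more cells of a type and more RNA per cell cannot be told apart.

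Laminin chains were among the genes with large changes at this stage. *lama1* (Xetrov72033042), which encodes the alpha1 chain of the laminin found in early embryos, had 584, 1292 and 2569 normalised reads at 8.5, 9.0 and 9.5 hpf, against 26.6, 13.4 and 33.1 at 6.5, 6.5 and 7.0 hpf. The later libraries all lay far above the earlier ones and climbed through the window, and the means differed 60.8-fold (log2 change 6.31, SE 0.57, adjusted p = 3.19e-06). *lamb1* (Xetrov72037788), its beta1 partner, had 3272, 4743 and 8322 normalised reads, against 177, 164 and 504 (log2 change 4.66, SE 0.50, adjusted p = 1.02e-05). *lamc1* (Xetrov72008200), the gamma1 chain shared by most laminins, had 3789, 5303 and 6513, against 4176, 3487 and 3880, so that the lowest later library lay within the earlier range and the log2 change was 0.83 (SE 0.20, adjusted p = 0.00336). The alpha and beta chains thus differed from the gamma chain in starting level: *lamc1* had 1858 or more normalised reads from 2.5 hpf onwards, while *lamb1* had at most 55.2 and *lama1* at most 19.4 up to 6.0 hpf.

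Of 8 laminin chains tested, 5 were higher (*lama1*, *lama4*, *lama5*, *lamb1*, *lamc1*) and 2 lower (*lama2*, *lamb3*), beside 33.1% and 35.6% of all genes tested. *lama5*, the alpha chain of another basement membrane laminin, had 2496, 3692 and 5337 normalised reads at 8.5 to 9.5 hpf, against 1592, 1413 and 1210 at 6.5 to 7.0 hpf (log2 change 1.85, SE 0.25). *lamb3*, a chain of the laminin of epithelial anchoring structures, had 90.5, 63.3 and 80.3, against 237, 263 and 194 (log2 change -1.18, SE 0.27), with no overlap of the windows. All 4 of the other matrix proteins were higher. *nid2* (Xetrov72012616), which bridges laminin and collagen, had 5933, 6586 and 7893 normalised reads, against 3895, 3873 and 3845 (log2 change 1.20, SE 0.14, adjusted p = 1.75e-05), while *hspg2* (Xetrov72016239), the core protein of perlecan, had 1098, 2017 and 3619, against 989, 851 and 734 (log2 change 1.80, SE 0.36). *sparc* (Xetrov72039699), a collagen-binding glycoprotein, had 168, 234 and 455, against 47.4, 45.1 and 58.0 (log2 change 2.91, SE 0.37, adjusted p = 3.12e-05). In *lama5*, *nid2*, *hspg2* and *sparc* the 9.5 hpf library was the highest of the window.

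Fibronectin and the collagen-modifying enzymes changed at the same stage. *fn1* (Xetrov72004173) had 32802, 35962 and 43427 normalised reads at 8.5, 9.0 and 9.5 hpf, against 15410, 18306 and 16602 at 6.5, 6.5 and 7.0 hpf (log2 change 1.55, SE 0.14, adjusted p = 4.02e-06). Over the whole of Series 2 it declined from 2.5 hpf to its lowest level, 11930 at 5.5 hpf, before it climbed, and from 7.5 hpf its level exceeded that at 2.5 hpf. *fbn3*, a fibrillin, had 15.4, 221 and 1703 normalised reads, against 0, 0.960 and 11.6, so that most of its later level came from the last library (log2 change 7.63, SE 1.54, adjusted p = 0.00099). Only with the later libraries did *fbn3* pass the filter on low counts, so its test is a description. Of 5 collagen hydroxylases tested, 4 were higher, beside 33.1% of all genes tested. *plod2* (Xetrov72000542), a lysyl hydroxylase that prepares collagen for cross-linking, had 3557, 5717 and 9235 normalised reads, against 268, 303 and 385, a 19.4-fold difference of means (log2 change 4.67, SE 0.35, adjusted p = 1.2e-06). *plod1* had 257, 743 and 1295, against 68.1, 119 and 80.3 (log2 change 3.52, SE 0.50), whereas *p4ha1*, the catalytic subunit of a prolyl hydroxylase, did not pass the test (log2 change -0.18, adjusted p = 0.566).

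Among the collagens themselves, 3 of 13 tested were higher and 1 was lower, beside 33.1% and 35.6% of all genes tested. *col18a1* (Xetrov72004305), a basement membrane collagen that carries heparan sulphate, had 3872, 5293 and 7304 normalised reads, against 1365, 901 and 1082 (log2 change 2.70, SE 0.24, adjusted p = 3.31e-06). *col9a2*, which encodes a chain of a fibril-associated collagen, had 193, 155 and 158, against 551, 379 and 325 (log2 change -0.92, SE 0.21), and *col9a3*, which encodes another chain of the same collagen, moved the other way with 217, 198 and 280, against 154, 130 and 147 (log2 change 1.09, SE 0.21). Of 2 lysyl oxidases tested, *loxl2* was lower (log2 change -1.38, adjusted p = 0.0108), and *loxl1*, the one with the highest level at 9.5 hpf, was not called.

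Integrin subunits that were called were all higher. These were 4 of 8 alpha subunits (*itga2*, *itga3*, *itga4*, *itga6*) and 2 of 4 beta subunits (*itgb1*, *itgb4*). Of all genes tested, 33.1% were higher and 35.6% lower. *itga4*, an alpha subunit that binds fibronectin and cell surface ligands, had 22.1, 70.5 and 263 normalised reads at 8.5 to 9.5 hpf, against 2.49, 2.88 and 3.31 at 6.5 to 7.0 hpf (log2 change 5.73, SE 0.96). It passed the filter on low counts only through the later window and could not be called lower, so its test is a description. *itga3* and *itga6*, both laminin receptors, changed by 3.07 (SE 0.39) and 1.23 (SE 0.19) on the log2 scale. *itgb4*, which pairs with *itga6*, had 136, 240 and 477, against 29.9, 18.2 and 54.7 (log2 change 3.44, SE 0.55). *itgb1* (Xetrov72033557), the beta subunit common to most matrix receptors, had 21446, 20715 and 19790, against 17463, 19728 and 19793. Its windows overlapped, the means differed 1.09-fold, and the call (log2 change 0.50, SE 0.11, adjusted p = 0.00196) was lost with library totals as the scaling (adjusted p = 0.297, the highest of 10 alternatives, whose lowest was 1.72e-06). *itga5* (Xetrov72029068), the fibronectin-binding partner of *itgb1*, had 2215, 2817 and 3789, against 4443, 3995 and 2867, and did not pass the test (log2 change 0.04, adjusted p = 0.87). It reached its lowest level, 2065 normalised reads, at 8.0 hpf. *itgav*, the alpha subunit of vitronectin receptors, did not pass either (log2 change 0.08, adjusted p = 0.689).

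**Figure D2:**
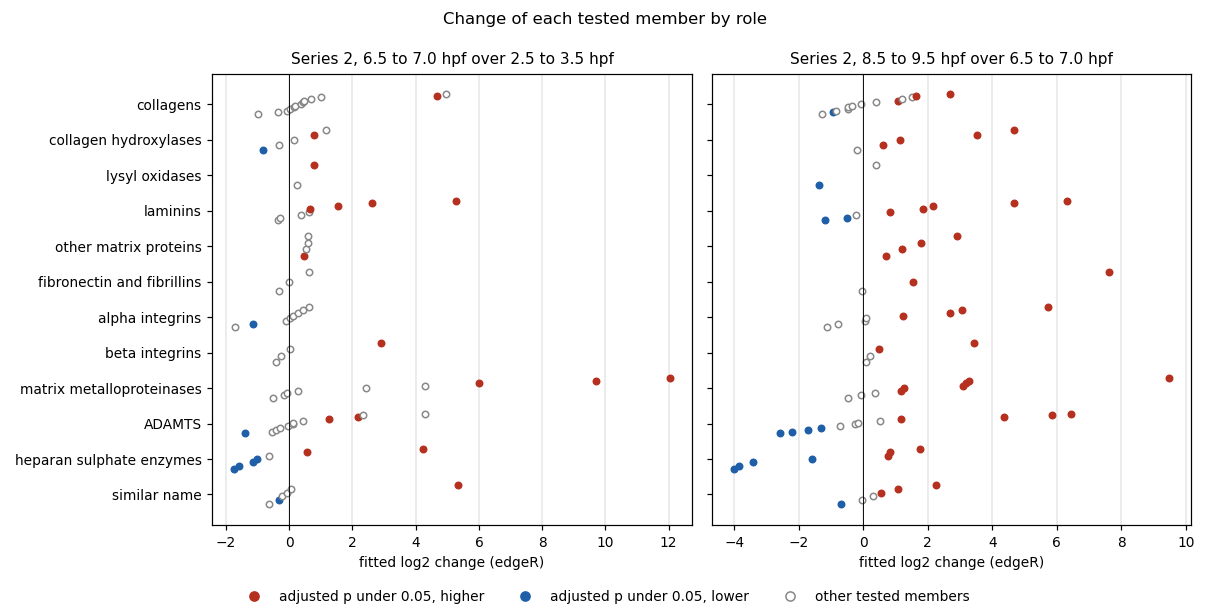
Fitted log2 change of each tested matrix and integrin gene by role in Series 2, for 6.5 to 7.0 hpf over 2.5 to 3.5 hpf and for 8.5 to 9.5 hpf over 6.5 to 7.0 hpf. Filled red and blue points are higher and lower at adjusted p under 0.05 and open points are the other genes tested. In the later comparison 6 of 9 metalloproteinases and 5 of 8 laminin chains are red, and the heparan sulphate enzymes hold 3 red and 4 blue points. Of all genes tested there, 33.1% were higher and 35.6% lower.

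Of 9 metalloproteinases tested, 6 were higher at the onset of gastrulation and none was lower, where 33.1% of all genes tested were higher and 35.6% lower. *mmp3* (Xetrov72029983), a stromelysin that cleaves many matrix proteins, had 810, 1238 and 1944 normalised reads at 8.5 to 9.5 hpf, against 0, 0 and 6.63 at 6.5 to 7.0 hpf (log2 change 9.50, SE 0.72, adjusted p = 3.8e-06). It was the member with the largest log2 change in this comparison and was at 0 in every Series 2 library up to 6.5 hpf. Within the Series 2 windows *mmp3* reached 10 counts only at 8.5 to 9.5 hpf. It passed the filter only through that window and could not be called lower, so its rank and test are descriptions. *mmp1* (Xetrov72030083), an interstitial collagenase, had 899, 811 and 594, against 64.0, 63.4 and 180, and *mmp14* (Xetrov72020164), a membrane-bound metalloproteinase, had 599, 805 and 1069, against 94.7, 79.7 and 202. *mmp17* (Xetrov72020468), a membrane-anchored metalloproteinase, had 902, 973 and 856, against 473, 443 and 649 (log2 change 1.18, SE 0.19). The courses of these genes differed: *mmp1* was highest at 8.5 hpf and *mmp17* at 9.0 hpf, whereas *mmp3* and *mmp14* were highest at 9.5 hpf. *mmp1* lies next to *mmp13l*, and *mmp3* next to *mmp7*, in the RefSeq gene order, and reads assigned to more than one gene were discarded by the authors.

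Of 12 ADAMTS genes tested, 4 were higher and 4 lower, close to the shares of all genes tested (33.1% higher and 35.6% lower). *adamts18* had 76.1, 154 and 248 normalised reads, against 4.15, 1.92 and 0.828 (log2 change 6.44, SE 0.65, adjusted p = 1.92e-05), and *adamts5*, an aggrecanase, had 151, 257 and 273, against 11.6, 15.4 and 15.7 (log2 change 4.38, SE 0.33). *adamtsl4*, an ADAMTS-like protein without a protease domain, had 13.2, 94.9 and 171, against 2.49, 1.92 and 1.66 (log2 change 5.86, SE 0.90). *adamts18* and *adamtsl4* passed the filter on low counts only through the later window and could not be called lower. Their tests and the count of 4 higher are therefore descriptions. In the other direction, *adamts3*, which trims the amino end of procollagens, had 98.2, 100.3 and 90.4, against 616, 627 and 491, and was 6.00-fold lower (log2 change -2.20, SE 0.19, adjusted p = 2.25e-06). *adamts6* was 7.82-fold lower (log2 change -2.58, SE 0.26). *adamts1*, which cleaves large proteoglycans, peaked at 6248 normalised reads at 8.0 hpf and had 5629, 4230 and 2758 afterwards, against 1941, 1989 and 3294 at 6.5 to 7.0 hpf, so that its windows overlapped (log2 change 1.17, SE 0.26, adjusted p = 0.00175).

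All 7 heparan sulphate enzymes tested were called, 3 higher and 4 lower, where 33.1% of all genes tested were higher and 35.6% lower. With so few enzymes these counts are a description. *hs3st1* (Xetrov72021636), which adds the rare 3-O-sulphate, had 25.4, 20.8 and 31.0 normalised reads at 8.5 to 9.5 hpf, against 489, 643 and 335 at 6.5 to 7.0 hpf, a 19.01-fold difference (log2 change -3.85, SE 0.34, adjusted p = 2.71e-06). *hs6st2* and *hs6st3*, 6-O-sulphotransferases, were near or at 0, with 1.10, 0 and 1.83 against 38.2, 20.2 and 9.11 for *hs6st2* and 2.21, 0.904 and 0 against 17.4, 13.4 and 13.3 for *hs6st3*. The related *hs6st1* had 2373, 2791 and 2431, against 1468, 1941 and 2191 (log2 change 0.82, SE 0.17, adjusted p = 0.00102). A similar split was seen in the N-deacetylase/N-sulphotransferases, which start the sulphation of the chain. *ndst2* had 747, 946 and 1022, against 4243, 3874 and 2710 (log2 change -1.60, SE 0.18, adjusted p = 1.47e-05), while *ndst1* had 4578, 5359 and 5086, against 3551, 3418 and 4610 (log2 change 0.76, SE 0.17). The *ndst1* call was lost with library totals as the scaling (adjusted p = 0.0661, the highest of 10 alternatives, whose lowest was 3.13e-06), and its windows overlapped.

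Activation of the zygotic genome had come earlier and moved fewer of the genes, as it did over all genes tested. At 6.5 to 7.0 hpf against 2.5 to 3.5 hpf in Series 2, 17 of 81 genes tested were higher and 8 lower, where 28.2% of all 14097 genes tested were higher and 19.9% lower. The median log2 change was 0.19 over the tested genes and 0.07 over all genes. With the size factors of DESeq2 17 were higher and 13 lower.

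The metalloproteinases included the members with the largest changes. *mmp17* had 473, 443 and 649 normalised reads at 6.5, 6.5 and 7.0 hpf, against 0 in each library at 2.5, 3.0 and 3.5 hpf, and was at least 203-fold higher when 3 counts per library were taken as the floor (adjusted p = 6.96e-08). *mmp1* had 64.0, 63.4 and 180, against 0 in each earlier library, and was at least 39.9-fold higher (adjusted p = 4.87e-05). *mmp14* had 94.7, 79.7 and 202, against 1.63, 1.57 and 1.94 (log2 change 6.01, SE 0.58, adjusted p = 8.65e-06). In all 3 genes every later library exceeded every earlier one. Within the Series 2 windows *mmp17*, *mmp1*, *mmp14*, *lama4* and *itgb1bp2* reached 10 counts only from 6.5 hpf onwards. They could therefore not be called lower at activation, and their rank is a description. In the time course *mmp17* was at 0 up to 4.0 hpf, had 3.43 and 0.833 normalised reads in the duplicates at 4.5 hpf, and then 36.8 at 5.0 hpf, 274 at 5.5 hpf and 459 at 6.0 hpf, the earliest crossing of 25 normalised reads in Series 2 among the genes that then stayed above it to 9.5 hpf. *hs3st3a1*, a 3-O-sulphotransferase, crossed that level at 5.5 hpf, *adamts7*, *mmp1* and *mmp14* at 6.0 hpf, *itgb1bp2*, *itgb4* and *lama1* at 7.0 hpf, *adamts18* and *mmp3* at 7.5 hpf and *lama4* at 8.0 hpf. Duplicates were averaged for these times, and a single 6.5 hpf library already lay above that level for *itgb4* and *lama1*. Another 4 genes crossed at 9.0 hpf and 6 at 9.5 hpf, among them the collagen genes *col2a1*, *col5a1*, *col5a2* and *col13a1*.

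Beyond the proteases, 4 of 8 laminin chains tested were higher at activation, beside 28.2% of all genes tested. *lamb1* had 177, 164 and 504 normalised reads, against 36.6, 36.0 and 55.2 (log2 change 2.63, SE 0.52, adjusted p = 0.00144). *lama4*, a chain of vascular and muscle laminins, had 14.96, 9.60 and 24.8, against 0, 0 and 0.968. *lamb3* (log2 change 1.54, SE 0.27) and *lama2* (log2 change 0.65, SE 0.15) were higher here and lower in the next interval. The windows hid where they peaked: *lamb3* was highest at 5.0 hpf, with 350 normalised reads, and *lama2* at 7.5 hpf. *lamb3* had 107 counts at 3.5 hpf and 274 at 4.0 hpf. *nid2* (log2 change 0.48, SE 0.14), *p4ha1* (0.80, SE 0.27), *adamts1* (1.25, SE 0.26), *loxl1* (0.78, SE 0.19) and *ndst1* (0.55, SE 0.17) passed the test with smaller changes, of which those of *p4ha1* and *ndst1* were lost when single libraries were left out (adjusted p between 0.0142 and 0.119 for *p4ha1* and between 0.00765 and 0.0765 for *ndst1* over 10 alternatives each). *itgb1bp2*, which encodes a muscle protein that binds the integrin beta1 tail, had 21.6, 15.4 and 52.2, against 0.814, 0 and 0.968.

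The genes that were lower at activation had transcripts in the embryo before it. Of the 8, 4 were among the 7 heparan sulphate enzymes tested, where 19.9% of all genes tested were lower. *itga5* had 4443, 3995 and 2867 normalised reads at 6.5 to 7.0 hpf, against 8194, 7521 and 7452 at 2.5 to 3.5 hpf (log2 change -1.16, SE 0.22, adjusted p = 0.00102). *hs6st1* had 1468, 1941 and 2191, against 6245, 5724 and 5319, and was 3.09-fold lower (log2 change -1.74, SE 0.17, adjusted p = 9.79e-06). *hs6st3*, *ndst2*, *hs3st1*, *plod3* and the aggrecanase *adamts4* were lower too, with log2 changes of -1.60, -1.02, -1.16, -0.82 and -1.42. In *hs3st1* the comparison of windows hid a peak: it had 680, 958 and 1405 normalised reads at 2.5, 3.0 and 3.5 hpf, reached 3628 and 3503 in the duplicates at 4.5 hpf, and had 489, 643 and 335 at 6.5 to 7.0 hpf.

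Several genes with roles in the gastrula matrix did not pass the test at activation. *fn1* had 15410, 18306 and 16602 normalised reads, against 20523, 19229 and 18282 (log2 change -0.32, SE 0.14, adjusted p = 0.0784). *plod2* had 268, 303 and 385, against 286, 267 and 244 (log2 change 0.15, SE 0.31, adjusted p = 0.72). *itgb1* (log2 change -0.25, adjusted p = 0.0825), *lamc1* (-0.37, adjusted p = 0.154), *col18a1* (0.15, adjusted p = 0.626), *sparc* (0.58, adjusted p = 0.222), *hspg2* (0.52, adjusted p = 0.24), *lama1* (0.63, adjusted p = 0.432) and *itgav* (0.01, adjusted p = 0.952) did not pass either.

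**Figure D3:**
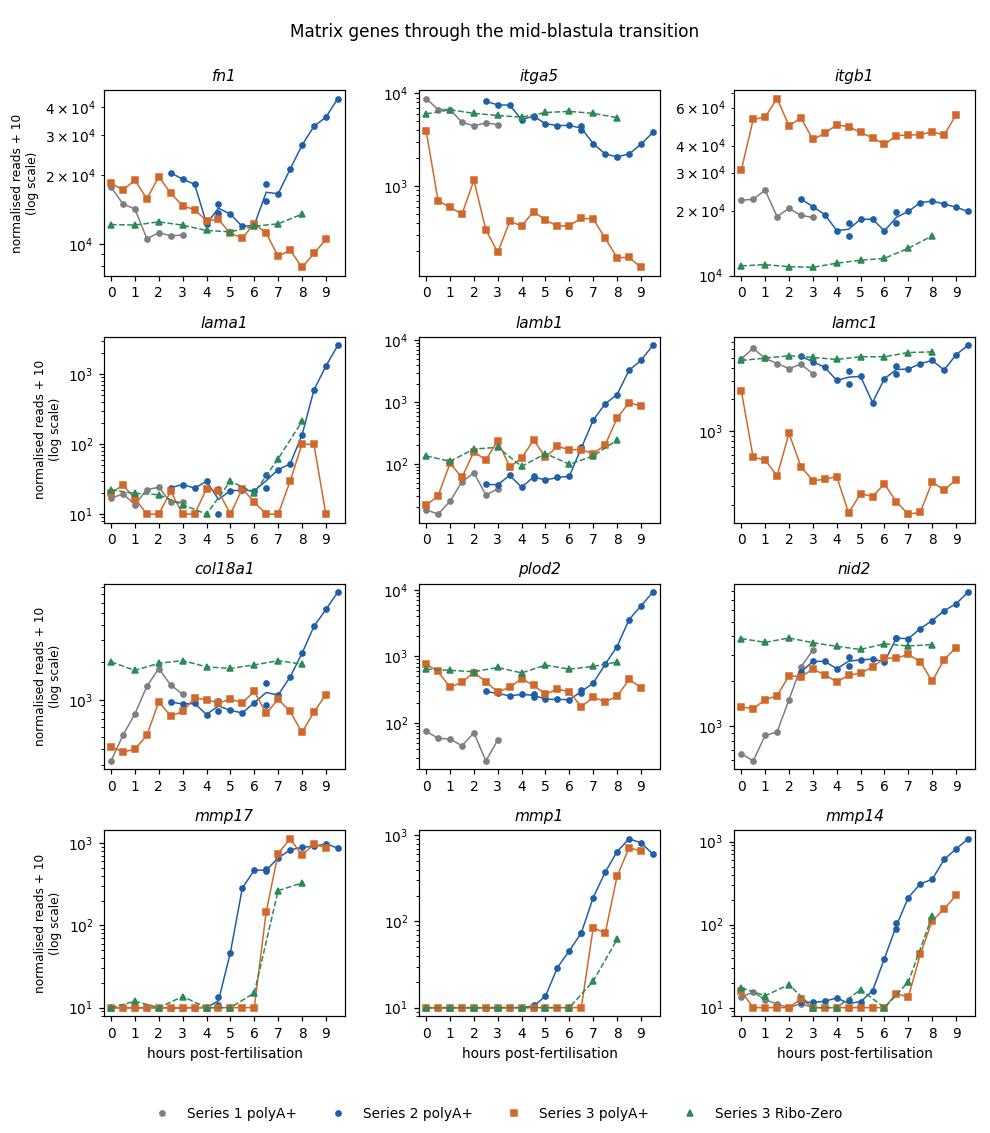
Levels of 12 genes against hpf in all libraries, as normalised reads + 10 on a log axis, with Series 1 in grey, Series 2 in blue, Series 3 polyA+ in orange squares and Series 3 Ribo-Zero in green triangles, and lines through the mean of the libraries at each time. *mmp17*, *mmp1* and *mmp14* leave the baseline in Series 2 and Series 3, *lama1*, *lamb1* and *plod2* climb after 7.0 hpf in Series 2, and the *itga5* and *lamc1* levels of Series 3 polyA+ lie far below those of the other sets.

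By fitted log2 change, *mmp17*, *mmp1*, *mmp14* and *itgb1bp2* had the 4 largest increases among the called genes in both clutches. In Series 3 these 4 genes passed the filter on low counts only through the later window. In Series 2 they passed it only through the windows from 6.5 hpf onwards. They could therefore not be called lower at activation in either clutch, and their rank is a description. In Series 3 polyA+ RNA, at 8.0 to 9.0 hpf against 3.0 to 4.0 hpf, 7 of 51 genes tested were higher and 8 lower, where 17.9% of 10905 genes were higher and 22.6% lower, and the medians were -0.06 and -0.11. With the size factors of DESeq2 9 were higher and 6 lower. *mmp17* had 708, 955 and 873 normalised reads at 8.0, 8.5 and 9.0 hpf, against 0 in each library at 3.0, 3.5 and 4.0 hpf (at least 86.5-fold higher, adjusted p = 2.8e-05). *mmp1* had 325, 705 and 649, against 0 (at least 57.3-fold higher, adjusted p = 0.000119), and *mmp14* had 101, 144 and 216, against 0 (at least 15.8-fold higher, adjusted p = 0.00218). *itgb1bp2* had 255, 428 and 317, against 3.22, 6.59 and 0 (log2 change 6.62, SE 0.93, adjusted p = 0.000237). *mmp17* was first above 25 normalised reads at 6.5 hpf, *mmp1* at 7.0 hpf and *mmp14* at 7.5 hpf, so that *mmp17* came first, as in Series 2. *lamb1* had 543, 977 and 850, against 229, 79.0 and 114 (log2 change 2.58, SE 0.66, adjusted p = 0.00879). *mmp3* and *loxl3* were not analysed here in Series 3.

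Of 48 genes tested in both clutches, the 7 called higher in both (*adamts1*, *itgb1bp2*, *lamb1*, *mmp1*, *mmp14*, *mmp17*, *ndst1*) made up 7 of the 7 called higher in Series 3 and 7 of the 11 in Series 2. Among them *itgb1bp2*, *mmp1*, *mmp14* and *mmp17* could not have been called lower in either clutch, given the filter. The 4 called lower in both (*adamts4*, *col4a3bp*, *hs6st1*, *hs6st3*) made up 4 of 8 in each, and 0 genes were called in opposite directions. The share of all genes called alike in both clutches is not given here, so these counts only describe the genes. *hs6st1* had 2363, 2721 and 2383 normalised reads in the later window of Series 3, against 8555, 8445 and 9482, and *itgav* had 314, 311 and 336, against 1051, 870 and 988 (log2 change -1.48, SE 0.22, adjusted p = 0.000313). *fn1* had 7892, 9085 and 10459, against 14677, 14146 and 12637 (log2 change -0.49, SE 0.15, adjusted p = 0.0224), a call lost in 8 of 10 alternatives (adjusted p between 0.00924 and 0.272). The count of higher genes was 4 without the 8.0 or the 9.0 hpf library and 2 without the 8.5 hpf library, and that of lower genes was 5 without the 3.0 or the 3.5 hpf library. *mmp1*, *mmp14*, *mmp17* and *itgb1bp2* reached 10 counts only in the 3 later libraries of the fit. The filter therefore removed them, untested, from each fit that left out a later library. Their calls held in all 7 alternatives that tested them.

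The change across activation itself was compared between clutches with an interaction term, Series 3 minus Series 2. It differed for 4 of 73 genes tested, 3 more positive in Series 3 and 1 more negative, where 11.2% and 5.83% of 13446 genes did so. *itgav* differed by -1.35 on the log2 scale (SE 0.28, adjusted p = 0.00366): the Series 3 values above fell, while those of Series 2 were 410, 387 and 501 at 6.5 to 7.0 hpf, against 351, 404 and 436 at 2.5 to 3.5 hpf. *itgb1* differed by 0.60 (SE 0.19, adjusted p = 0.035) and *ndst2* by 1.85 (SE 0.58, adjusted p = 0.039), and each of these calls was lost in 11 of 16 alternatives (adjusted p between 0.0103 and 0.413 for *itgb1* and between 0.00667 and 0.292 for *ndst2*). *adamts17* differed by 7.57 (SE 2.06, adjusted p = 0.0222), a fitted value that depends on counts of 0: Series 3 had 26.6, 0 and 34.8 normalised reads, against 0 in each earlier library, and Series 2 had 37.4, 21.1 and 24.02, against 24.4, 25.1 and 28.1. The count was 7 without the 9.0 hpf library of Series 3 and 2 without the 7.0, the 2.5 or the 3.0 hpf library of Series 2. For *mmp17* and *mmp1*, at 0 in both earlier windows, the fitted differences of 1.43 (SE 3272) and 3.17 (SE 8065) carry no information. Both are counted among the 73 genes tested, although the test could not call them.

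In Ribo-Zero RNA, at 6 to 8 hpf against 0 to 2 hpf, 3 of 55 genes tested were higher and 3 lower, where 13.9% of 11863 genes were higher and 11% lower, and the medians were 0.07 and -0.01. *hspg2* had 463, 607 and 661 normalised reads, against 336, 312 and 412 (log2 change 0.82, SE 0.18, adjusted p = 0.0121). *itgb1* had 12005, 13365 and 15262, against 11070, 11222 and 10975 (log2 change 0.41, SE 0.10, adjusted p = 0.0181), and *lamc1*, with overlapping windows, changed by 0.25 (SE 0.08, adjusted p = 0.0442), a call lost in 7 of 10 alternatives (adjusted p between 0.00441 and 0.175). *hs3st1* had 4750, 3939 and 3346, against 6206, 6437 and 5871 (log2 change -0.51, SE 0.10), and *plod3* and *itgav* changed by -0.53 (SE 0.14) and -0.45 (SE 0.12). The calls of *itgb1* and *plod3* were each lost in 3 of 10 alternatives, that of *itgav* in 2 and that of *hspg2* in 1. These counts varied with single libraries: 9 genes were higher without the 6 hpf library, 1 without the 7 hpf library and 0 without the 0 hpf library, and 1 gene was lower without the 7 or the 0 hpf library. Genes that appeared within the window were seen in the individual libraries. *mmp17* had 5.09, 254 and 318 normalised reads at 6, 7 and 8 hpf, *lama1* had 10.2, 51.9 and 201, *mmp14* had 0, 10.4 and 117 and *itgb1bp2* had 2.54, 46.7 and 123.

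In the cleavage comparisons polyA+ levels of the genes changed in both directions. The later windows of Series 3 extend to hours in which zygotic transcription has begun. In Series 1, at 2.0 to 3.0 hpf against 0 to 1.0 hpf, 13 of 56 genes tested were higher and 14 lower, where 29.8% of 11743 genes were higher and 26.7% lower, and the medians were -0.43 and 0.01. With library totals as the scaling 17 were higher and 4 lower. In Series 3 polyA+ RNA, at 3.0 to 4.0 hpf against 0 to 1.0 hpf, 9 of 51 were higher and 9 lower, where 19.9% of 10905 genes were higher and 18.1% lower, and the medians were -0.0045 and 0. With library totals 12 were higher and 5 lower.

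*hs3st1* had the largest increase in Series 1. It had 271, 452 and 793 normalised reads at 2.0, 2.5 and 3.0 hpf in Series 1, against 27.6, 18.8 and 71.9 at 0, 0.5 and 1.0 hpf (12.8-fold, log2 change 3.21, SE 0.50, adjusted p = 0.002). In Series 3 it had 819, 487 and 933 at 3.0 to 4.0 hpf, against 67.8, 81.0 and 121 (8.31-fold, log2 change 2.71, SE 0.36, adjusted p = 0.000514). Called genes with larger increases in Series 3 were *loxl2*, *hspg2* and *fbn1*. *loxl2* had 32, 58 and 32 counts, against 3, 0 and 0. These genes passed the filter only through libraries after the earlier window and could not be called lower, so their rank is a description. *p4ha1* had 620, 1059 and 1389, against 203, 147 and 244, in Series 1 (log2 change 1.88, SE 0.29) and 297, 448 and 331, against 110, 81.0 and 116, in Series 3 (1.48, SE 0.34). *adamtsl5*, another ADAMTS-like gene, changed by 1.92 (SE 0.28) in Series 1 and 1.74 (SE 0.30) in Series 3, and *ndst1* by 1.20 (SE 0.23) and 1.29 (SE 0.23). *nid2* passed the test in Series 1 (1498, 2486 and 3221 normalised reads, against 647, 578 and 859, log2 change 1.30) and not in Series 3 (log2 change 0.33, adjusted p = 0.192).

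Other genes went down over the same hours. *fn1* had 11198, 10850 and 10950 normalised reads in the later window of Series 1, against 17745, 14971 and 14233 (log2 change -1.004, SE 0.20, adjusted p = 0.00379), and 14677, 14146 and 12637 in Series 3, against 18428, 17275 and 19023 (log2 change -0.74, SE 0.15, adjusted p = 0.00364). The Series 3 call of *fn1* was lost with library totals (adjusted p = 0.062, the highest of 10 alternatives, whose lowest was 1.61e-07). *itga5* had 4477, 4795 and 4605 in Series 1, against 8792, 6692 and 6695 (log2 change -1.17, SE 0.19), and 184, 408 and 364 in Series 3, against 3925, 684 and 584 (log2 change -2.77, SE 0.65, adjusted p = 0.0077). Without the 0.0 hpf library of Series 3 its *itga5* change was -1.50 (adjusted p = 0.00276, between 1.78e-05 and 0.0285 over 10 alternatives), and those of *lamc1* and *plod3* were -1.15 and -1.60, in place of -2.09 and -2.90 with it. The call of *hs6st3* (log2 change -2.01, adjusted p = 0.0374) was lost without that library (adjusted p = 0.0748) and in 5 of 10 alternatives (adjusted p between 0.00464 and 0.101). Without it 10 genes were higher and 12 lower.

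Of 41 genes tested for cleavage in both clutches, 6 were higher in both (*adamtsl5*, *col18a1*, *hs3st1*, *hspg2*, *ndst1*, *p4ha1*), which is 6 of 12 in Series 1 and 6 of 8 in Series 3. The calls of *col18a1* were lost in 3 of 10 alternatives in Series 3 and 5 of 11 in Series 1, and those of *hspg2* in 4 of 10 and 2 of 11. In Series 3 *hspg2* passed the filter only through libraries after its earlier window, so it could not be called lower there. A further 8 were lower in both (*col4a3bp*, *fn1*, *hs6st3*, *itga5*, *itgb1bp3*, *lamc1*, *p4ha2*, *plod3*), which is 8 of 13 and 8 of 9, and 0 moved in opposite directions. The share of all genes called alike in both clutches is not given for cleavage either. The interaction of cleavage, Series 3 minus Series 1, was called for 0 of 61 genes tested with edgeR, with 6 at an unadjusted p under 0.05 and 2 called by DESeq2, where 0.00824% of 12130 genes were called in each direction. In Series 1 an alternative chosen after seeing the data made the later window of the 1.5 and 2.0 hpf libraries only. With it 2 genes were higher (*adamtsl5*, log2 change 1.58, and *lamb1*, 2.16) and 0 lower. The share of all genes called in that setting is not given here. Its later window is earlier and holds 2 libraries in place of 3, and what removed the other calls was not tested. In that setting *hs3st1* changed by 2.02 (adjusted p = 0.0522), *p4ha1* by 0.91 (adjusted p = 0.0811), *ndst1* by 0.73 (adjusted p = 0.0866), *nid2* by 0.51 (adjusted p = 0.148), *fn1* by -0.81 (adjusted p = 0.0641) and *itga5* by -0.93 (adjusted p = 0.0537), each the highest adjusted p of its 11 alternatives, and these 6 genes kept their calls in the other 10. In Series 1, 7 genes were called higher without the 0.0 hpf library, 8 higher and 9 lower without the 2.5 hpf library and 9 lower without the 3.0 hpf library.

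Total RNA of the same clutch gave a different picture of cleavage. In Ribo-Zero RNA, at 3 to 5 hpf against 0 to 2 hpf, 0 of 55 genes tested were called by edgeR or by DESeq2, with 4 at an unadjusted p under 0.05, where 0% of all 11863 genes were called in either direction. *hs3st1*, which changed 8.31-fold in polyA+ RNA of this clutch, had 5977, 5822 and 4937 normalised reads in Ribo-Zero RNA at 3, 4 and 5 hpf, against 6206, 6437 and 5871 at 0, 1 and 2 hpf (log2 change -0.12, adjusted p = 0.666). *p4ha1* had 1767, 1807 and 1899, against 1982, 1747 and 1913 (log2 change -0.02, adjusted p = 0.963). *itga5* had 5776, 5530 and 6220, against 6000, 6655 and 6086 (log2 change -0.07, adjusted p = 0.753), and *lamc1* changed by 0.03 (adjusted p = 0.926). The windows of the polyA+ and Ribo-Zero comparisons differ in hpf, and the difference between their changes was not tested.

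**Figure D4:**
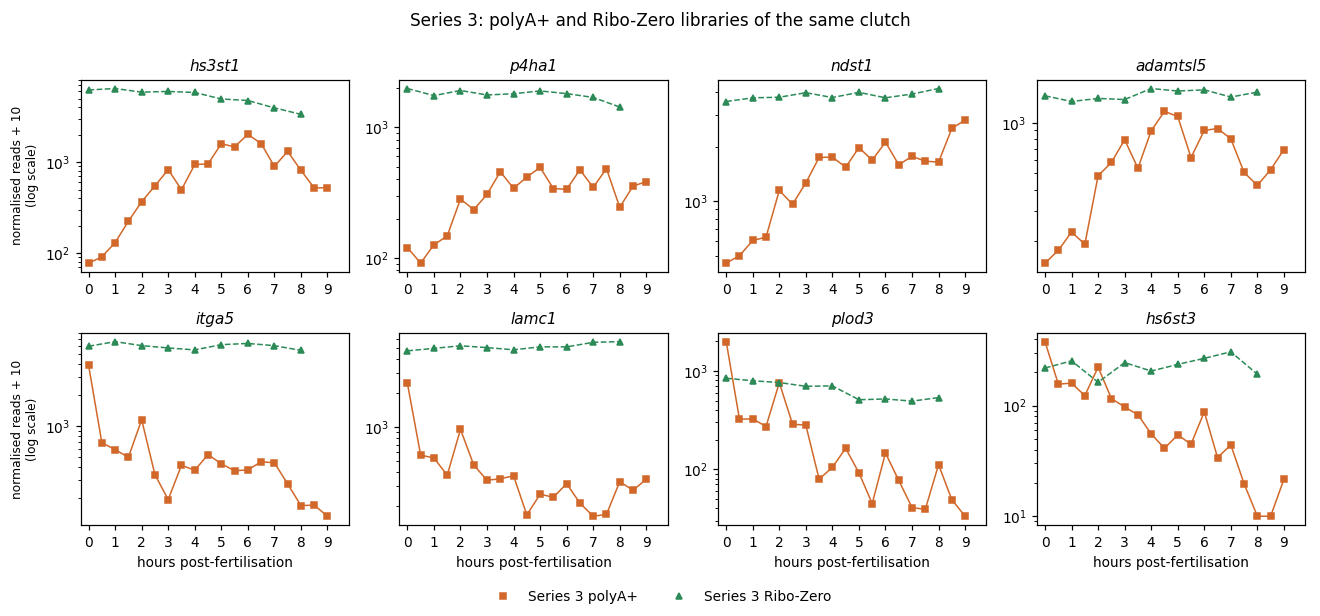
Levels of 8 genes against hpf in Series 3, as normalised reads + 10 on a log axis, polyA+ in orange squares and Ribo-Zero in green triangles. *hs3st1*, *p4ha1*, *ndst1* and *adamtsl5* climb in polyA+ RNA over the first hours while their Ribo-Zero levels vary less, and *itga5*, *lamc1*, *plod3* and *hs6st3* are highest in polyA+ RNA at 0.0 hpf and lie below their Ribo-Zero levels at 6 to 8 hpf.

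Levels in polyA+ and Ribo-Zero RNA were compared directly in Series 3. At 0, 1 and 2 hpf, 13 of 59 genes tested were higher and 21 lower in polyA+ than in Ribo-Zero RNA, where 28.8% of 12411 genes were higher and 36.1% lower, and the medians were -0.76 and -0.34. With library totals 8 were higher and 28 lower. At 6, 7 and 8 hpf 9 were higher and 22 lower, where 28% were higher and 29.7% lower, and the medians were -0.62 and 0.01. With library totals 3 were higher and 29 lower. Both kinds of library were made from the same RNA, but the share of a library that other RNAs take differs between them, so the differences describe one gene relative to the rest.

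Integrin beta subunits and fibronectin stood on the polyA+ side in the early embryo. *itgb1* had 30725, 54141 and 49423 normalised reads in polyA+ RNA at 0, 1 and 2 hpf, against 11070, 11222 and 10975 in Ribo-Zero RNA (log2 difference 2.84, SE 0.25, adjusted p = 2.06e-06), and *itgb5*, a subunit of vitronectin receptors, differed by 2.58 (SE 0.33). *fn1* had 18428, 19023 and 19727, against 12162, 12101 and 12498 (log2 difference 1.47, SE 0.13, adjusted p = 2.62e-06). *itgb1bp3*, the kinase that shares only the name, had 22303, 19598 and 17615, against 3087, 2732 and 2489, the largest early difference on this side (log2 difference 3.68, SE 0.19). The enzyme gene *hs6st1* had 7538, 7373 and 8471, against 2710, 3230 and 3134 (log2 difference 2.19, SE 0.23).

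On the other side were transcripts with many reads in total RNA and few in polyA+ RNA. *hs3st1* had 67.8, 121 and 358 normalised reads in polyA+ RNA at 0, 1 and 2 hpf, against 6206, 6437 and 5871 in Ribo-Zero RNA, a 33.9-fold difference (log2 difference -4.32, SE 0.50, adjusted p = 1.73e-05). *adamts1* had 675, 371 and 646, against 7385, 7757 and 8313 (log2 difference -2.97, SE 0.27), and *p4ha1* had 110, 116 and 272, against 1982, 1747 and 1913 (log2 difference -2.72, SE 0.30). *hspg2*, with 2.88, 1.68 and 33.1, against 336, 312 and 412, was nearly absent from the early polyA+ libraries. *adamts5* and the alpha subunit *itga9* were at 0 in the 3 early polyA+ libraries and had at most 48.9 and 52.2 normalised reads in any Ribo-Zero library, and *adamts17* had 5.76, 0 and 0 in polyA+ RNA and at most 87.8 in Ribo-Zero RNA.

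Between the early and the late window the relation reversed or deepened for some genes. The difference of the differences, late minus early, was called for 14 of 59 genes, 2 more positive and 12 more negative late, where 18% and 15% of all genes were called. *hs3st1* moved towards polyA+ RNA by 3.16 (SE 0.63, adjusted p = 0.00446), with 2013, 889 and 804 normalised reads in polyA+ RNA at 6, 7 and 8 hpf, against 4750, 3939 and 3346 in Ribo-Zero RNA. *itga5* moved away by -2.78 (SE 0.79, adjusted p = 0.0204), with 367, 432 and 160, against 6393, 6083 and 5472, an 18.7-fold difference late. *lamc1* moved by -2.70 (SE 0.68, adjusted p = 0.0125), with 306, 153 and 319, against 5070, 5564 and 5641, and *plod3* by -3.13 (SE 0.86, adjusted p = 0.0175). Without the 0.0 hpf polyA+ library these values were -1.55, -1.81 and -2.11. *fn1* moved by -1.27 (SE 0.18, adjusted p = 0.00134), its late levels being 12244, 8813 and 7892, against 11962, 12254 and 13505 (log2 difference 0.20, adjusted p = 0.209). *ndst2* stayed low in polyA+ RNA in both windows and had 172, 74.9 and 154 late, against 5767, 4910 and 4182 (log2 difference -4.62, SE 0.97, adjusted p = 0.0019). *mmp15*, a membrane-type metalloproteinase, was the one gene called higher in polyA+ RNA early (1.12) and lower late (-0.62). The count of 14 was 23 without the 2.0 hpf polyA+ library.

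The *itga5*, *lamc1* and *ndst2* levels also set the clutches apart in polyA+ RNA. *ndst2* had 19.8 to 74.7 normalised reads at 3.0 to 4.0 hpf of Series 3 and 6582 to 6861 at 2.5 to 3.5 hpf of Series 2, while its Ribo-Zero levels in Series 3 were 4182 to 6104 throughout. *itga5* had 184 to 408 in Series 3 and 7452 to 8194 in Series 2 in the same windows, with Ribo-Zero levels of 5472 to 6655. Library kit, sequencer, read length, pool size, colony and clutch differ together here, so which of them sets these levels cannot be told apart.

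Outside these genes, a list of 131 further genes of matrix, adhesion and proteoglycan biology was counted, of which 118 were found. At the onset of gastrulation in Series 2, 26 of 80 tested were higher and 29 lower, shares close to those of all genes. At activation 17 were higher and 19 lower in Series 2, where 28.2% of all genes tested were higher and 19.9% lower. In Series 3 polyA+ RNA 10 of 55 were higher and 17 lower, beside 17.9% and 22.6% of all genes. In Ribo-Zero RNA 15 of 63 were higher and 3 lower, beside 13.9% and 11% of all genes. In cleavage 15 of 67 were higher and 23 lower in Series 1, beside 29.8% and 26.7% of all genes. In Series 3 polyA+ RNA 6 of 55 were higher and 11 lower, beside 19.9% and 18.1%. In Ribo-Zero RNA 0 were called, beside 0% of all genes.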

How the data were processed

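Total counts per gene and the normalised reads made from them were deposited by the authors, who mapped reads with Bowtie 0.12.7 (the tool and version in the submitters' processing notes) to *X. tropicalis* gene models and discarded reads that matched more than 1 gene. The deposited normalised signal equals the count divided by the library total without ribosomal RNA, times 25000000. The authors' counts were used for all tests and rows that name no gene were left out, which held 0.0836% to 35.1% of the counts of a library, most in Ribo-Zero libraries.

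Counts were fitted with edgeR 4.0.16 (R 4.3.3) by quasi-likelihood with TMM scaling, over genes that reached 10 counts in 3 or more libraries of a fit, with Benjamini-Hochberg adjustment over all genes and a threshold of 0.05. The test was also run on simulated data. Those libraries were independent and held no trend within a window, so that run does not cover neighbouring time points used as replicates. Tables and figures were made with Python 3.11.15, numpy 2.4.6, pandas 2.3.3 and matplotlib 3.10.9. Alternatives were the size factors of DESeq2 1.42.0, library totals, the DESeq2 test, no filter, each library left out and a replicate block. PolyA+ and Ribo-Zero libraries of the same time point came from the same RNA, which pairs them. Their deviations from the window mean correlated over 12411 genes by 0.036 to 0.046 early and 0.173 to 0.622 late at the same hpf, and by -0.048 to 0.006 and -0.559 to 0.145 at other hpf.

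The genes, gene lists and windows were chosen with earlier results of these data known. Named genes were the 5 called genes with the largest change in each direction of a comparison, 20 listed genes and the gene of highest level at 9.5 hpf in each role. Not every value of these genes is printed here. Other named genes were chosen after their values were seen. Gene order was taken from RefSeq, where 145 of the 148 genes matched. Genes were ordered by their RefSeq chromosome and start position, and no sequence was used here.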

Additional observations from a re-analysis of the deposited data

Results flagged for a closer look

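The change across activation differed between Series 3 and Series 2 by the interaction test for 4 genes. The differences, Series 3 minus Series 2, were 7.57 on the log2 scale for *adamts17*, 1.85 for *ndst2*, 0.60 for *itgb1* and -1.35 for *itgav*. The cleavage changes of Series 3 and Series 1 differed for 0 of 61 genes by edgeR, with 6 at an unadjusted p under 0.05, and for 2 by DESeq2.

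The difference between polyA+ and Ribo-Zero RNA changed between the early and the late window for 14 genes. Among the named genes, the late minus early difference was 3.16 for *hs3st1* and 1.05 for *ndst1*, and -3.24 for *hs6st3*, -3.13 for *plod3*, -2.78 for *itga5*, -2.70 for *lamc1* and -1.75 for *mmp15*. The call of *ndst1* was lost in 13 of 17 alternatives (adjusted p between 0.00171 and 0.115) and that of *hs6st3* in 5 of 17 (adjusted p between 0.000217 and 0.0653). Clutch, colony, pool size, kit, sequencer and read length differ together between Series 3 and Series 2, and none of these values was tested against a cause.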

How the results depend on the processing

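Of 140 named gene results, 54 lost their call in some alternative, 41 of them outside the leave-one-out fits, most often with library totals (22) and with the Series 1 window of 1.5 and 2.0 hpf (16), a setting chosen after seeing the data. In that setting the *col9a2* log2 change of S1 cleavage, -1.29, reversed to 0.010 (adjusted p = 0.987), and 2 genes were higher and 0 lower in Series 1 cleavage, against 13 and 14. The share of all genes called in that setting is not given, and its later window holds 2 libraries in place of 3. Library totals moved the all-gene median by 0.12, -0.38, 0.48, -0.11 and 0.34 on the log2 scale for Series 2 activation, gastrula onset, Series 1 cleavage, Series 3 activation and Series 3 cleavage, and by -0.82 and -0.58 for polyA+ against Ribo-Zero early and late. With them 20 genes were lower at gastrula onset (13), 4 lower in Series 1 cleavage (14), 5 lower in Series 3 cleavage (9), 8 higher early (13) and 3 higher late (9) in polyA+ against Ribo-Zero RNA, and 9 differed late minus early (14). DESeq2 size factors gave 13 lower at Series 2 activation (8), no filter gave 7 higher in Ribo-Zero activation (3) and the DESeq2 test gave 2 for Series 3 minus Series 1 cleavage (0). Leaving out single libraries gave 2 to 8 higher and 5 to 8 lower in Series 3 activation. Fits without a library of its later window did not test *mmp1*, *mmp14*, *mmp17* and *itgb1bp2*, which failed the filter there. The same step gave 0 to 9 higher and 1 to 4 lower in Ribo-Zero activation and 7 to 13 higher and 9 to 20 lower in Series 1 cleavage. It gave 10 to 23 late minus early and 2 to 7 for Series 3 minus Series 2 activation. The replicate block gave 13 higher and 22 lower early, 7 and 20 late and 14 late minus early, and ended the late calls of *adamts5* (adjusted p = 0.054), *col4a2* (0.0657), *itga9* (0.0848) and *loxl2* (0.0663) and no other named call. Depth limits low genes: in Series 3, 57 of 131 genes had under 10 counts in every library.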

Other observations

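Series 1 and Series 2 overlap at 2.5 and 3.0 hpf, with a different female and the same kit. Of 69 matrix and integrin genes with at least 10 counts there, 14 (20.3%) differed over 2-fold between the clutches with 10 normalised reads added, beside 23.03% of all 12860 genes, and 0 differed over 10-fold, beside 0.397%. *plod2* had 286 and 267 normalised reads in Series 2 and 16.7 and 45.1 in Series 1. *itga6* had 1145 and 1365 in Series 2 and 325 and 522 in Series 1. The Series 1 values here come only from the 2.5 and 3.0 hpf libraries, after the step described above. For *itga6* the Series 1 counts were 810, 902 and 991 at 1.0, 1.5 and 2.0 hpf and 272 and 428 afterwards. *hs6st1* had 6245 and 5724 in Series 2 and 2511 and 2936 in Series 1. In the other direction *col24a1*, a fibrillar collagen, had 64.3 and 32.9 in Series 2 and 663 and 471 in Series 1, and *itgb5* had 3546 and 2870 in Series 2 and 10441 and 6673 in Series 1. With 1 clutch on each side these values have no replicate check.

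The 5 genes that stepped up in Series 1 between 2.0 and 2.5 hpf were at intermediate levels in the 2.0 hpf library, such as *gpc1*, a glypican of the cell surface, with 33.7 normalised reads at 2.0 hpf and 380 and 389 at 2.5 and 3.0 hpf. In Series 3 *col14a1* had 51.9 normalised reads in the 0.0 hpf polyA+ library and at most 39.0 in the others, and 285 to 501 in the Ribo-Zero libraries. *mmp24* had at most 33.3 in any Series 3 polyA+ library and 0 in every Ribo-Zero library.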
